A study of Rattus norvegicus with 11 samples.

Results

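Pla2g7 and 7 further genes of platelet-activating factor (PAF) metabolism were followed in the left dentate gyrus of rats after traumatic brain injury (TBI). The 8 genes were Pla2g7, Pafah1b1, Pafah1b2, Pafah1b3, Ptafr, Lpcat1, Lpcat2 and Pla2g4a, taken by gene symbol from the 17245 genes to which the array annotation gave a probe set of their own. Each of the 8 had 1 probe set, and all 8 passed the filter on low signals, as did 16572 genes in all. Pla2g7 was selected on its higher signal in TBI rats than in controls in these same arrays, and the other 7 for their place in the same metabolism, so the difference of Pla2g7 is given as a description and not as a test. The samples were 6 male Sprague-Dawley rats given a lateral fluid-percussion injury (a brief pressure wave delivered to the exposed dura) and 5 sham-operated male rats of the same strain that had the anesthesia and the craniectomy without the impact. All 11 rats were killed 90 days after the operation, and RNA of the dissected dentate gyrus with the hilus was hybridized to 1 Affymetrix Rat Gene 1.1 ST array per rat. Values are log2 signals, so a difference of 1 is a doubling.

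PAF is an ether phospholipid that acts on cells at very low concentration, in inflammation, platelet activation and signaling between neurons and glia. In the remodeling route a phospholipase A2 frees a lyso-PAF from membrane lipid, and the acyltransferases LPCAT1 and LPCAT2 acetylate it to PAF. PAF is sensed by a G protein-coupled receptor, PTAFR. It is inactivated by acetylhydrolases, which remove the acetyl group: PLA2G7, a secreted enzyme that also cleaves oxidized phospholipids and circulates on lipoproteins, and the intracellular enzyme built from PAFAH1B2, PAFAH1B3 and the regulatory subunit PAFAH1B1. PAFAH1B1 is also known as LIS1, the dynein regulator required for neuronal migration.

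Of the granule cell genes, Prox1, their transcription factor, had a mean log2 signal of 9.29, and Calb1, which encodes calbindin, had 8.04. Dsp, another granule cell marker, had a mean of 4.82, below every array median. Array medians lay between 5.26 and 5.35. A single component, the main axis along which rats of the same group differed from each other, held 63.9% of the within-group variance over the 17905 probe sets tested. Control rat 2 and TBI rats 1 and 3 stood apart on it, with scores from 0.42 to 0.49, and the other 8 rats had scores from -0.34 to 0.06. Results are therefore also given without these 3 rats. At an adjusted p under 0.05 in limma, 27 probe sets (0.151%) differed between TBI and control rats, 25 of them (0.14%) higher and 2 (0.0112%) lower.

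Pla2g7, the secreted PAF acetylhydrolase, was higher in every TBI rat than in any control. The control rats had log2 signals of 7.56, 7.69, 7.73, 7.75 and 8.02, and the TBI rats ranged from 8.17 over a median of 8.43 to 8.72. The groups did not overlap, as was the case for 1.04% of all probe sets tested, and a gap of 0.16 separated TBI rat 4, the lowest of the injured rats, from control rat 2, the highest of the controls. Control rats averaged 7.75 ± 0.17 (SD, n = 5) and TBI rats 8.43 ± 0.19 (SD, n = 6), a difference of 0.68 (standard error 0.097), or 1.6-fold. Of the probe sets tested, 7 had a larger rise. The values that brought the gene to notice were this difference and its adjusted p of 0.026 in limma across all probe sets. With 1 rat left out at a time the difference stayed between 0.62 and 0.74, while the adjusted p lay between 0.018 and 0.099 and was above 0.05 in 6 of the 11 fits, those without control rat 1, 3, 4 or 5 and those without TBI rat 5 or 6.

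**Figure D1:**
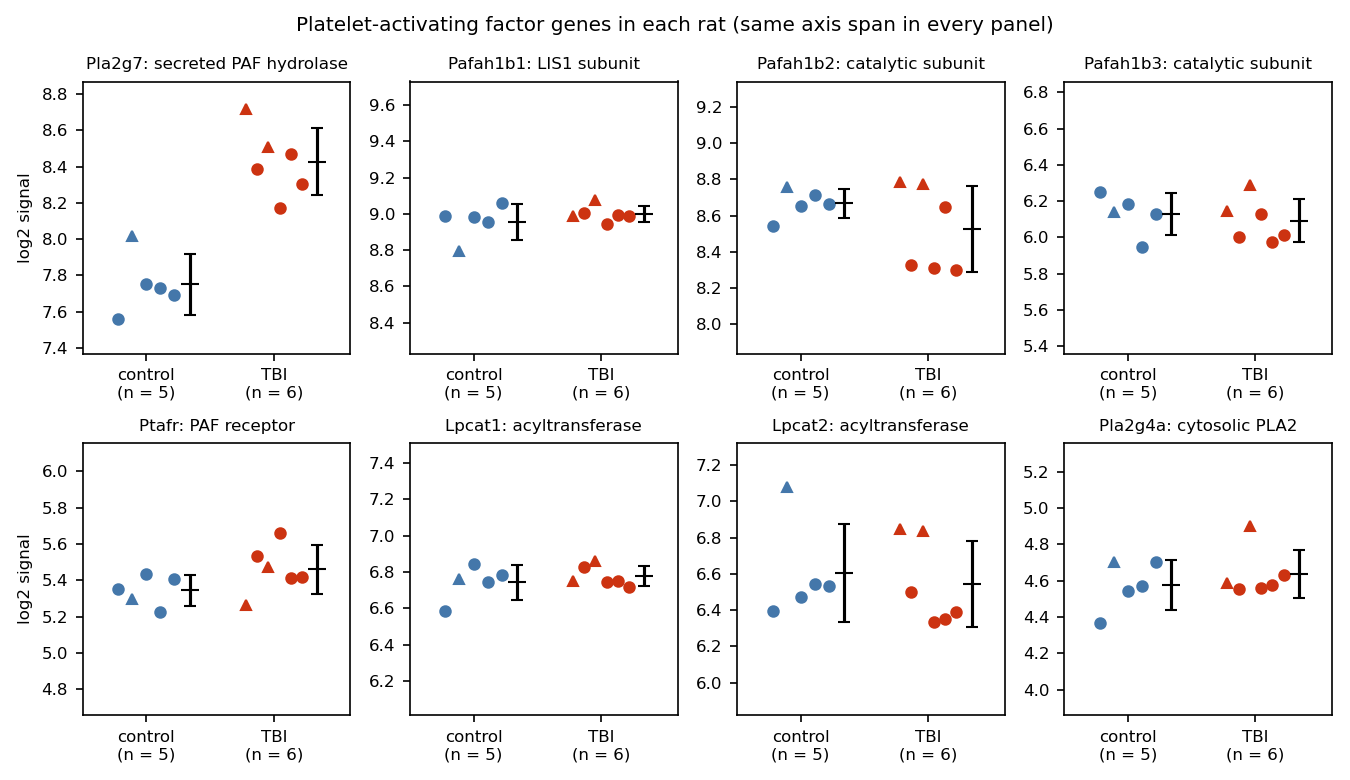
Log2 signal (vertical axis) of each of the 8 genes in the 5 control (blue) and 6 TBI (red) rats. Triangles are the 3 rats that stood apart on the within-group component, and black bars are the group mean ± SD. Every panel has the same span, and only for Pla2g7 do the groups not overlap, with controls up to 8.02 and TBI rats from 8.17.

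The rats that stood apart were the highest for Pla2g7 within their own groups. TBI rats 1 and 3 had the highest signals after TBI, 8.72 and 8.51, and control rat 2 had the highest among controls. Of the variance of Pla2g7 within the groups, 84.2% lay along the component, and 12.2% of all probe sets had a larger share. Without the 3 rats, 4 controls lay between 7.56 and 7.75 and 4 TBI rats between 8.17 and 8.47, with a difference of 0.65 (standard error 0.067). Since the groups did not overlap with all 11 rats, they could not overlap here. A fit with the component score as a covariate cannot change any difference, because the component was built from deviations from the group means. It lowers the standard error of the genes that follow the component. The score came from the same deviations that the fit then removes, so its p-values can be too low and its calls are descriptive. In that fit 5.28% of all probe sets passed, 2.52% higher and 2.76% lower, and 0 of the other 7 genes did.

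None of the 3 subunit genes of the intracellular acetylhydrolase passed the test. Pafah1b2, which encodes one of its catalytic subunits, had log2 signals of 8.54, 8.65, 8.67, 8.71 and 8.76 in controls and ranged from 8.30 over a median of 8.49 to 8.79 after TBI. TBI rats 2, 4 and 6, with signals of 8.30 to 8.33, lay below every control, whereas TBI rats 1 and 3 lay above every control. The difference was -0.14 (standard error 0.10, 95% interval -0.36 to 0.08, adjusted p = 0.87 from limma), within the spread of the rats. Pafah1b2 followed the component almost as closely as Pla2g7 did, with 79.4% of its within-group variance. Without the 3 rats its difference was -0.25 (95% interval -0.42 to -0.07, adjusted p = 0.13 from limma), a value that still did not pass.

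Pafah1b3, the other catalytic subunit, had log2 signals of 5.94, 6.13, 6.14, 6.18 and 6.25 in controls and from 5.98 to 6.29 after TBI, with a median of 6.07. The groups overlapped throughout and the difference was -0.04 (95% interval -0.18 to 0.11, adjusted p = 0.95 from limma). Pafah1b1, the LIS1 subunit, had the tightest values after TBI, from 8.95 to 9.08 with a median of 8.99, against 8.80, 8.95, 8.98, 8.99 and 9.06 in controls. Its difference of 0.04 (95% interval -0.06 to 0.15, adjusted p = 0.91 from limma) was smaller than the spread of the controls. Only 4.59% of its within-group variance lay along the component. The shares of Pafah1b2 and Pafah1b1 along the component thus lay far apart, as the plot of signal against component score shows.

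**Figure D2:**
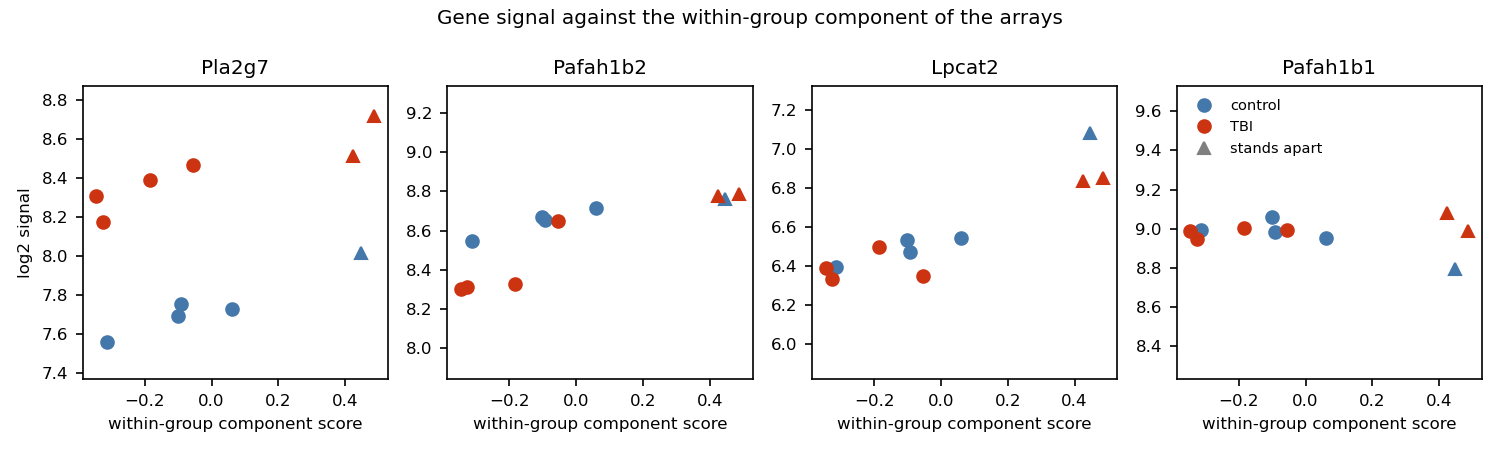
Log2 signal (vertical axis) of Pla2g7, Pafah1b2, Lpcat2 and Pafah1b1 against the score of each rat on the within-group component (horizontal axis, no unit). Blue, control; red, TBI; triangles, the 3 rats with scores from 0.42 to 0.49. For Pla2g7 the TBI rats lie above the controls at every score, while for Pafah1b2 TBI rats 2, 4 and 6, at 8.30 to 8.33, lie below every control. Pafah1b1 has 4.59% of its within-group variance on the component.

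The PAF receptor gene Ptafr, which in rodent brain is expressed mainly by microglia, had signals of 5.23, 5.30, 5.35, 5.40 and 5.43 in controls. After TBI it ranged from 5.26 over a median of 5.45 to 5.66, with TBI rats 2, 3 and 4 above every control. The difference of 0.12 (standard error 0.065, 95% interval -0.03 to 0.26) did not pass the test (unadjusted p = 0.10, adjusted p = 0.81 from limma). TBI rat 1, at 5.26, lay among the lowest controls. Without it the unadjusted p was 0.021 and the adjusted p 0.37, and without the 3 rats that stood apart the difference was 0.15 (adjusted p = 0.24 from limma). Unlike Pla2g7, Ptafr was lower where the component score was higher, and 33.2% of its within-group variance lay along it.

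None of the 3 enzymes of the remodeling route passed the test. Lpcat2, the acyltransferase that makes PAF in activated macrophages, had signals of 6.40, 6.47, 6.53, 6.54 and 7.08 in controls and from 6.34 to 6.85 after TBI, with a median of 6.44. The 3 rats that stood apart held the highest values, 7.08 in control rat 2, 6.85 in TBI rat 1 and 6.84 in TBI rat 3, and 85.8% of the within-group variance of Lpcat2 lay along the component. The difference between the groups was -0.06 (95% interval -0.36 to 0.24, adjusted p = 0.96 from limma) with all rats and turned to 0.06 without control rat 2. Lpcat1, which also makes PAF and is best known for surfactant lipid in the lung, had signals of 6.59, 6.75, 6.76, 6.78 and 6.85 in controls and from 6.72 to 6.86 after TBI, with a median of 6.75. Its difference was 0.03 (95% interval -0.07 to 0.14, adjusted p = 0.94 from limma), and without control rat 1, the lowest control, it was -0.0073. Pla2g4a, the cytosolic phospholipase A2 that releases arachidonic acid and lyso-PAF, was among the dimmer of the probe sets, with signals of 4.37, 4.54, 4.57, 4.70 and 4.70 in controls and from 4.56 to 4.90 after TBI, with a median of 4.58. The highest value was that of TBI rat 3, and the difference was 0.06 (95% interval -0.11 to 0.23, adjusted p = 0.93 from limma).

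Of the 7 genes other than Pla2g7, therefore, 0 passed at an adjusted p under 0.05 in limma, against 0.151% of all probe sets tested, and 0 also had an unadjusted p under 0.05, against 6.82% of all (4.96% higher and 1.87% lower). The one-way analysis of variance also called 0 of them. Their 95% intervals ended at 0.26 or lower, that of Ptafr being the highest, and reached down to -0.36 for Pafah1b2 and Lpcat2. The median difference over the 8 genes was 0.04 and that over all probe sets tested was 0.01.

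**Figure D3:**
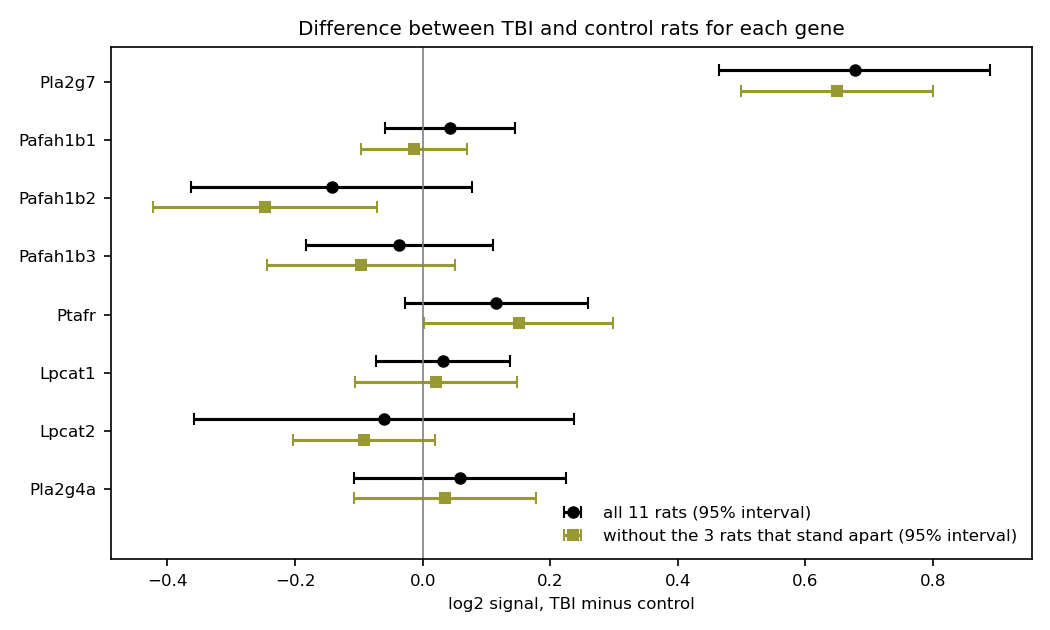
Difference in log2 signal between TBI and control rats (horizontal axis) for each gene, with 95% intervals. Black circles use all 11 rats and olive squares leave out control rat 2 and TBI rats 1 and 3. Pla2g7 lies at 0.68 and 0.65, and the intervals of the other 7 genes with all rats lie between -0.36 and 0.26.

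Pla2g7, Pafah1b2 and Lpcat2, the genes with over 79% of their within-group variance along the component, are shown here with their promoters because they had the largest shares of their variance there among the 8 genes. Each sequence is the RefSeq promoter of rat build GRCr8, minus strand, from 250 bases before to 50 bases after the start of the gene, written 5′ to 3′. Capitals mark the GC box, GGGCGG on either strand. Promoters were found by symbol for 6 of the 8 genes. For Lpcat2 the gene ID in the array annotation differed from that in RefSeq, so its promoter rests on the symbol alone.
Pla2g7, chr9:24901698-24901997: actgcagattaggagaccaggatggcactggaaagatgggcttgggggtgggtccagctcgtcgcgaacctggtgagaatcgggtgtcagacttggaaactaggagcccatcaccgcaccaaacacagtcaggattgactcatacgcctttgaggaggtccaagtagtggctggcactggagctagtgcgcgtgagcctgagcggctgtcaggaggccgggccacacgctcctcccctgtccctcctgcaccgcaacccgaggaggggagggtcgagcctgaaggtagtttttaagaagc
Pafah1b2, chr8:55176499-55176798: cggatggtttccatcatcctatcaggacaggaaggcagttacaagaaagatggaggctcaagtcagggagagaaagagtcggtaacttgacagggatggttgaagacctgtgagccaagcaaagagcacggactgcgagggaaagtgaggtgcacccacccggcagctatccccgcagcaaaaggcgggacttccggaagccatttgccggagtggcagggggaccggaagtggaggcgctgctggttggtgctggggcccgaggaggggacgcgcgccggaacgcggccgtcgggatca
Lpcat2, chr19:30325527-30325826: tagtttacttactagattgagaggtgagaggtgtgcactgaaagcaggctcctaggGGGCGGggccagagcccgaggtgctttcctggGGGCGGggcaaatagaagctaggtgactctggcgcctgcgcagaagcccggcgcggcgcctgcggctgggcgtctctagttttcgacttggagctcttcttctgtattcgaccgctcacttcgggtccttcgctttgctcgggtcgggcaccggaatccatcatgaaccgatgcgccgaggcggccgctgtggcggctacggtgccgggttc
The letters GGGCGG occurred 2 times in the Lpcat2 window, 2 times in that of Lpcat1, and not in the windows of Pla2g7, Pafah1b2, Ptafr and Pla2g4a, while 33.1% of 33469 rat promoters of the same length hold them. The TATA box letters TATAAA, searched on both strands, were found in the window of Pla2g4a alone, and 14.2% of all promoters hold them. G and C made up 59.7%, 61% and 62.7% of the windows of Pla2g7, Pafah1b2 and Lpcat2, against a median of 51.7% over all. Of the genes with the largest shares along the component, Lpcat2 alone held the GC box letters in this window.

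Around the PAF genes, 9 lists of related genes held 134 genes, of which 127 were measured. With all 11 rats none of the 127 passed at an adjusted p under 0.05 in limma (lowest adjusted p 0.24), and 10 were higher and 5 lower at an unadjusted p under 0.05, 11.8% of them against 6.82% of all probe sets. Without the 3 rats that stood apart 2 of the 127 passed, Lcat and Reln, where 1.51% of all probe sets passed. With the component as a covariate, a fit whose p-values can be too low, 10 passed, 7.87% against 5.28% of all probe sets. Of these, Lcat, Plaat3, Lpar6 and Plcb2 were higher. Cept1, Agpat5, Reln and the dynein and dynactin subunits Dctn3, Dync1li1 and Dynlt3 were lower. Cept1, Agpat5, Dctn3 and Dynlt3 had 95.4% to 98.8% of their within-group variance along the component, and the others 40.3% to 89.0%. Without the covariate the adjusted p-values of the 10 were 0.24 to 0.89 in limma. Dctn3, Dync1li1 and Dynlt3 are named here after their values were seen. The median difference of the 127 was 0.00491. Both the lists and the 8 genes were drawn up with earlier results of these rats known.

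Among the 4 genes measured in the list drawn up for PAF-cleaving and related hydrolases, Lcat had the largest difference. Whether each of the 4 cleaves PAF was not tested. Lcat encodes the lecithin-cholesterol acyltransferase of lipoproteins. Its signal ranged from 6.33 to 6.93 in controls and from 6.83 to 7.44 after TBI, with 4 TBI rats above every control, and the difference was 0.43 (standard error 0.12, adjusted p = 0.31 from limma). Without the 3 rats that stood apart it was 0.45 and passed with an adjusted p of 0.018, where 1.51% of all probe sets passed. Pafah2, an intracellular PAF acetylhydrolase outside the PAFAH1B complex, had a difference of 0.02 (95% interval -0.09 to 0.14), and the paraoxonases Pon2 and Pon3 had differences of 0.04 and 0.0076. Of the 18 other phospholipases A2 measured, 2 were higher at an unadjusted p under 0.05, where 4.96% of all probe sets were, Plaat3 (0.18) and the secreted Pla2g5 (0.10), and their adjusted p-values in limma were 0.42 and 0.64. The secreted Pla2g2a and Pla2g3 had differences of 0.10 and 0.10 that did not pass.

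Ether lipid synthesis, which supplies the precursors of PAF, had a median difference of -0.0060 over 12 genes. Gnpat, the peroxisomal enzyme of its first step, was at -0.08 (unadjusted p = 0.044, adjusted p = 0.72 from limma), the choline and ethanolamine phosphotransferase Cept1 at -0.25, the ether lipid monooxygenase Agmo at 0.08 and the peroxisomal import receptor Pex7 at 0.11. Of 11 other lysophospholipid acyltransferases, 7 had negative differences, as did 7664 of all 17905 probe sets. Lpcat4 lay lower in all 6 TBI rats than in any control, with a difference of -0.09 that did not pass (adjusted p = 0.66 from limma). The groups did not overlap for 2 of the 127 genes, Lpcat4 and Dynlrb1, and for 1.04% of all probe sets. Mboat7, Agpat2 and Agpat5 had differences of -0.07, 0.07 and -0.26. With all 11 rats 0 genes of both lists passed in the fit without a covariate. Each list had 1 gene lower at an unadjusted p under 0.05, where 1.87% of all probe sets were.

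Receptors and enzymes of other lipid mediators gave 0 calls after adjustment with all 11 rats. Of 16 genes of lysophospholipid breakdown and signaling, 3 were higher at an unadjusted p under 0.05 (4.96% of all probe sets were), the lysophosphatidic acid receptors Lpar6 (0.27) and Lpar5 (0.12) and the lipid phosphatase Plpp3 (0.13), and Lpar2 was at -0.11. Of 19 genes of eicosanoid synthesis, Alox5ap, the activator of 5-lipoxygenase, was at -0.17 (adjusted p = 0.56 from limma), prostaglandin D synthase Ptgds at 0.29, prostacyclin synthase Ptgis at 0.15 and prostaglandin E synthase Ptges at 0.07. Of 12 eicosanoid receptors, Ptger1 was at 0.14, Ptgdr2 at 0.09, Tbxa2r at 0.06 and Ptgir at 0.06. The median of the 12 was 0.03, and 11 had positive differences, as did 10241 of all 17905 probe sets. Their mean signals, from 3.36 to 4.95, lay below the array medians.

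Downstream of PTAFR, 1 of 13 coupling proteins, Plcb2, was higher at an unadjusted p under 0.05, as were 4.96% of all probe sets. Plcb2 encodes a phospholipase C of blood cells, and its difference was 0.18 (standard error 0.046, unadjusted p = 0.0018, adjusted p = 0.24 from limma), with 5 TBI rats above every control. Plcb4, Plcb3 and Gna12 had differences of 0.11, 0.14 and 0.08. Of 22 dynein and reelin partners of PAFAH1B1, 15 had negative and 7 positive differences. Of all 17905 probe sets, 7664 had negative and 10241 positive differences. Reln, the secreted guide of migrating neurons, was at -0.21 (adjusted p = 0.65 from limma). Without the 3 rats that stood apart it was at -0.28 (adjusted p = 0.013 from limma), where 1.51% of all probe sets passed. The dynein light chain Dynlrb1 lay lower in all 6 TBI rats than in any control, and 1.04% of all probe sets did not overlap. The difference of Dynlrb1 was -0.08 and did not pass (adjusted p = 0.72 from limma). The reelin receptor Vldlr and the migration protein Dcx were at -0.17 and -0.07.

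**Figure D4:**
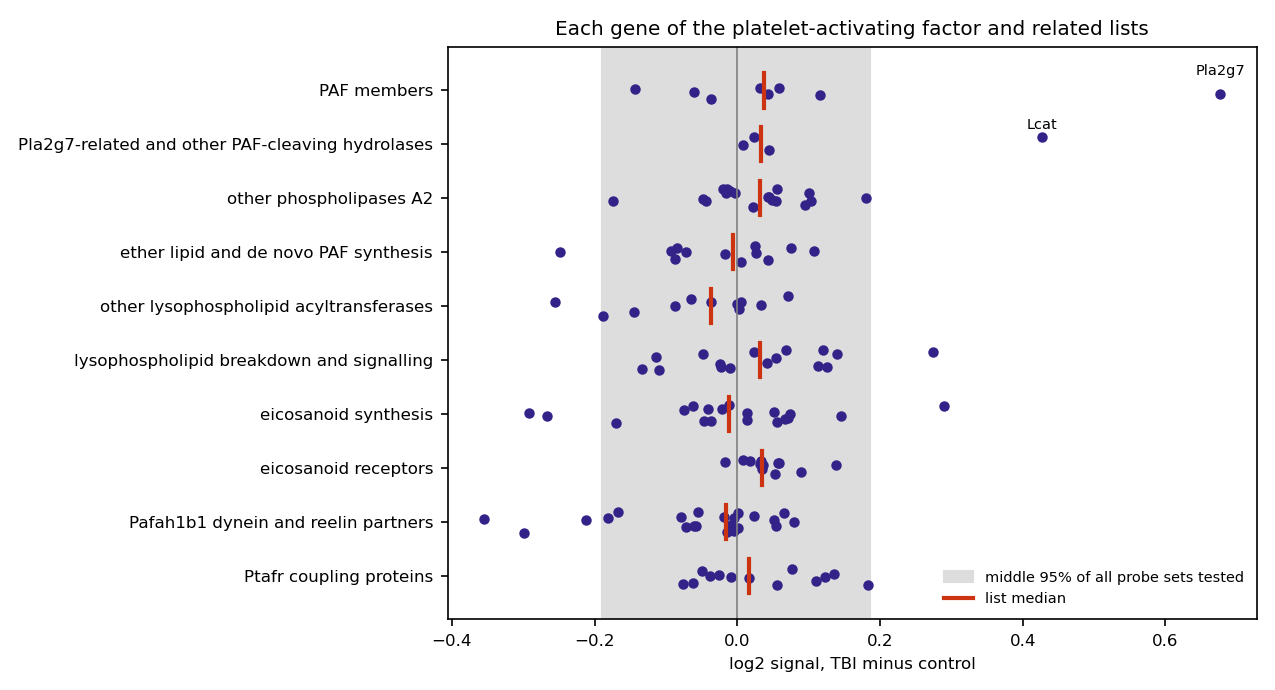
Difference in log2 signal between TBI and control rats (horizontal axis) of each measured gene in the PAF list and the 9 related lists. Points are genes, red bars are list medians and the gray band holds the middle 95% of all probe sets tested, from -0.19 to 0.19. Pla2g7 at 0.68 and Lcat at 0.43 lie farthest to the right.

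In whole tissue, more cells of a type and more RNA per cell cannot be told apart, and markers of the cells that express PAF genes moved between the groups too. In mouse brain Pla2g7 is a gene of astrocytes. Of 13 measured astrocyte markers, 2 rose at an adjusted p under 0.05 in limma, where 0.14% of all probe sets did, Gfap by 0.83 and Mlc1 by 0.29. S100b was at 0.15 and Aqp4 at 0.34, and 4 of the 13 had negative differences, Gjb6, Aldoc and Slc1a3 at -0.09 each and Slc1a2 at -0.0048. Without the 3 rats that stood apart Gja1 passed too (0.23, adjusted p = 0.017 from limma), where 1.51% of all probe sets passed. The mean log2 signal of the 13 ranged from 9.06 to 9.23 in controls and from 9.25 to 9.31 in TBI rats. The groups did not overlap in this mean. The mean was 0.16 higher after TBI, against 0.68 for Pla2g7. Among the 5 controls the astrocyte mean and Pla2g7 had the same order, rising from rat 1 over rats 5, 4 and 3 to rat 2. Among the injured rats the order was not the same. TBI rat 4, with the highest astrocyte mean, had the lowest Pla2g7 signal of its group. TBI rat 1, with the lowest astrocyte mean, had the highest Pla2g7 signal. The part of astrocytes in the difference of Pla2g7 was not tested.

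Of 14 microglia and macrophage markers, 0 passed after adjustment. At an unadjusted p under 0.05, 3 were higher, where 4.96% of all probe sets were, and 1 was lower, where 1.87% were. Differences were 0.58 for the lysosomal Cd68, -0.15 for Aif1, 0.24 for Tyrobp and 0.28 for Fcer1g. Cd68 was higher in all 6 TBI rats than in any control, and the groups did not overlap for 1.04% of all probe sets. It passed without the 3 rats that stood apart (0.69, adjusted p = 0.024 from limma), where 1.51% of all probe sets passed. With the component as a covariate its adjusted p from limma was 0.0039, in a fit whose p-values can be too low. The mean of the 14 ranged from 6.39 to 6.94 in controls and from 6.66 to 6.94 after TBI, and control rat 2, at 6.94, was level with TBI rat 4. Of 9 measured markers of blood leukocytes and perivascular macrophages, 0 passed and 0 had an unadjusted p under 0.05. Their mean lay between 3.99 and 4.08 in all rats, close to the background of 3.06, S100a8 was left out as at or below the background in more than 5 arrays, and Mrc1, Cd8a, Cd3g and Cd163 had differences of 0.10, 0.08, -0.05 and 0.06. PLA2G7 and LPCAT2 are also made by macrophages, and what part phagocytes had in these values was not tested.

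The lists of neuron, oligodendrocyte and endothelial markers gave 0 calls after adjustment. At an unadjusted p under 0.05, 2 of 10 neuron markers were lower, where 1.87% of all probe sets were. Of 7 endothelial markers 2 were higher, where 4.96% of all probe sets were. All 7 had positive differences, as did 10241 of all 17905 probe sets. Interneuron markers, which the paper reported as lower after TBI, were in none of the lists. Among 10 markers of granule cells and neurons, Tubb3, Stmn2, C1ql2 and Rbfox3 had differences of -0.13, -0.09, -0.19 and -0.14, while Prox1, Dsp and C1ql3 were at 0.04, 0.03 and 0.02 and Calb1 at -0.0015. The mean of the 10 ranged from 9.08 to 9.16 in controls and from 9.01 to 9.18 after TBI. In this mean 4 TBI rats lay below every control and 1 above. Among 7 oligodendrocyte markers, Opalin, Mobp, Mog and Mag had differences of 0.17, -0.15, -0.09 and 0.09, with means from 8.05 to 8.26 in controls and from 8.07 to 8.45 after TBI. Among 7 endothelial markers, Cdh5, Cldn5, Tek and Abcb1a had differences of 0.15, 0.16, 0.11 and 0.14, with means from 6.18 to 6.44 and from 6.27 to 6.45. The groups overlapped in each of the means.

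**Figure D5:**
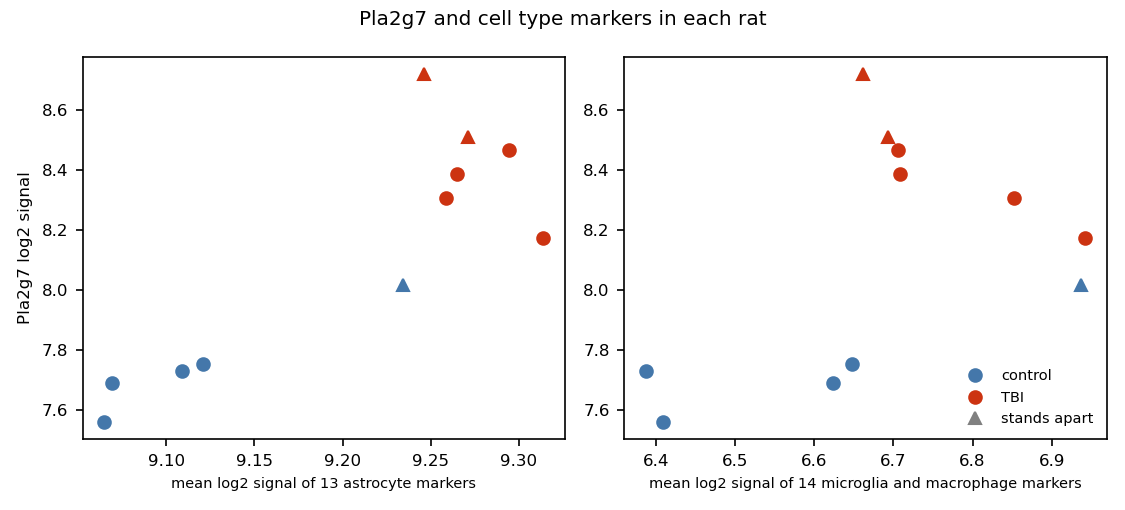
Log2 signal of Pla2g7 (vertical axis) against the mean log2 signal of the 13 astrocyte markers (left) and the 14 microglia and macrophage markers (right) in each rat. Blue, control; red, TBI; triangles, the 3 rats that stood apart. The astrocyte mean does not overlap between the groups (up to 9.23 in controls, from 9.25 after TBI), and the microglia mean does (6.39 to 6.94 and 6.66 to 6.94).

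Genes were also ranked by how closely their signal followed that of Pla2g7 over the 11 rats, as a description. With the group means left in, the 5 most alike of 16572 genes were Msn, the actin linker moesin, with a Pearson r of 0.95, Gcnt2 and Usp53 (0.94 and 0.93), Rida (0.93) and the cationic amino acid transporter Slc7a2 (0.92). These genes had differences of 0.26 to 0.41 between the groups, and 0 of them passed the test, with adjusted p-values from 0.059 to 0.23 in limma. With group means removed, the most alike were Rspry1, Arrdc3, Ndufs4, Kifbp and Bphl, all with r of 0.97. They had 80.4% to 85.0% of their within-group variance along the component and differences from -0.22 to -0.03. The first ranking draws on the difference between the groups by which Pla2g7 was selected, and the second cannot.

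For the other PAF genes the nearest genes were different ones. With group means removed, Ptafr was most alike to Mindy4, Zfyve19, Trim46, Il18bp and Mef2d, with r from 0.93 to 0.95, and Lpcat2 to Prim2, Maoa, Faap24, Hibch and Scrn3, with r of 0.98. Of these, the genes near Lpcat2 had 77.6% to 94.5% of their within-group variance along the component, and those near Ptafr 15.6% to 58.2%. All points shared the same arrays and their joint normalization.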

How the data were processed

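Dentate gyrus RNA of 6 TBI and 5 sham-operated rats was hybridized to Affymetrix Rat Gene 1.1 ST arrays. For 29214 probe sets the authors deposited log2 values made by RMA in the oligo package, whose version is 1.30.0 in the submitters' processing notes and a different one in the paper. The platform annotation pairs 18644 of these with 1 symbol, 962 with several and 9608 with none. Gene symbols of the lists were updated through RefSeq gene IDs.

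The study raised signals below its background, the median of the antigenomic probes, to that value. Here the floor was 3.06, the smallest value among the 1241 readable rows of its results table. The gene sets differ, since the 16572 genes kept here outnumber those in the study's ranked list. Whether the floor used here equals the study's background was not tested. Single-symbol probe sets were used, less 739 that did not exceed this floor in over 5 arrays. The 17905 probe sets left were fitted with limma 3.58.1 (lmFit and eBayes) in R 4.3.3, and p-values were adjusted by Benjamini-Hochberg across them, with 0.05 as the threshold. The fit was tested on simulated data with noise drawn separately for each probe set. Variation shared between probe sets was not part of that test. The methods' one-way analysis of variance was run as an alternative. The brightest probe set on average over the 11 arrays stood for each gene. The within-group component is the leading axis from a singular value decomposition of the deviations from the group means. The number of arrays limits the precision. Plots were drawn with matplotlib 3.10.9 in Python 3.11.15.

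The 8 genes and all lists were chosen with earlier results of these data known. Named were the 8 genes and the up to 4 genes of each list with the lowest p. Also named were the 5 genes most like Pla2g7 with and without removal of group means, and most like Ptafr and Lpcat2 with removal. Further genes of the lists, such as Gja1, Gjb6, Aldoc, Prox1, Dsp and Dctn3, were named outside this rule with their values known. The alternatives were other filters, scalings, variance models and annotations, weighted arrays, a block for replicate number, the component as a covariate, and fits without 1 or 3 rats.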

Additional observations from a re-analysis of the deposited data

Results flagged for a closer look

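Within each group, 28 sets of values (the 8 genes and the means of the marker lists in controls and in TBI rats) were searched for a rat far from the others, and 3 had one, where chance gives about 1 in 20. Lpcat2 in control rat 2 was at 7.08, against 6.40 to 6.54 in the other controls, and the mean of the endothelial markers in the same rat was 6.44, against 6.18 to 6.23. Pla2g4a in TBI rat 3 was at 4.90, against 4.56 to 4.63 in the other TBI rats. Both rats are among the 3 that stood apart on the within-group component.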

How the results depend on the processing

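Pla2g7 kept its direction in all 23 alternatives, with a difference between 0.62 and 0.74, and its adjusted p was 0.12 with the methods' one-way analysis of variance. None of the 7 other genes was called in any alternative. Of their 160 values, 4 changed sign: Pafah1b1 was at -0.014 without the 3 rats that stood apart, Lpcat1 at -0.014 with array weights and at -0.0073 without control rat 1, and Lpcat2 at 0.058 without control rat 2. With 1 rat left out, Lpcat1 ranged from -0.0073 to 0.058 and Lpcat2 from -0.12 to 0.058. The probe sets higher and lower after TBI numbered 25 and 2. They were 6 and 3 with arrays centred on their medians, 9 and 2 with a second quantile normalization, 7 and 1 with the one-way analysis of variance, 27 and 1 with probe sets averaged per gene, 243 and 67 with array weights, 451 and 495 with the component as a covariate, and 179 and 92 without the 3 rats. With 1 rat left out they lay between 4 and 31 and between 1 and 4. In the related lists 2 genes, Lcat and Reln, were called without the 3 rats, where 1.51% of all probe sets were. With the component as a covariate 10 were called, in a fit that cannot move any difference and whose p-values can be too low. The cause of these changes was not tested. The replicate numbers did not pair the rats: deviations of same-numbered rats correlated between -0.65 and 0.11. With the replicate block, which leaves out TBI rat 6, the counts were 3 and 0, and Pla2g7 had a difference of 0.70 (adjusted p = 0.46 from limma). Among the 7 other genes the standard error was largest for Lpcat2 (0.14) and Pafah1b2 (0.10), against a median of 0.059 over all probe sets.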
